A study of Mus musculus with 12 samples.

Results

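Open chromatin of mouse leukaemia carrying BRD9-NUTM1 (BN1) was set against that of leukaemia carrying MLL-ENL (ME), in 3 libraries each of the 12 in the series. The assay was ATAC-seq, in which a transposase cuts DNA that is not packed away by nucleosomes, on 150000 sorted CD45.2+ bone marrow cells per sample from C57BL/6 mice. BN1 samples were labelled CD45.2(+) BRD9-NUTM1 and ME samples CD45.2(+) MLL-ENL. The other groups, used below only as libraries outside this contrast, were CD45.2(+) marrow with no fusion named (Control) and CD45.2(+) MLL-AF9 (MA9). Ages, the way each fusion was introduced and expressed, and whether replicates were separate animals were not given in the sources used here, so the p-values below measure only the spread between these samples. Peaks of the 6 libraries on chromosomes 1 to 19 that overlapped by 1 bp or more merged into 10389 regions. A region was called specific to one leukaemia when all 3 of its libraries and none of the other 3 had a peak in it. Of the 10389 regions, 3885 were specific to ME (37.4%) and 22 to BN1 (0.212%), and 2519 were called in all 6 libraries. The rule was repeated with the 3011 strongest peaks of each library, the length of the shortest list, which gave 4187 regions, 318 specific to ME (7.59%), 233 specific to BN1 (5.56%) and 1909 in all 6.

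BRD9 is the bromodomain subunit of the non-canonical BAF form of the SWI/SNF chromatin remodeller, and NUTM1 is a testis protein that recruits the histone acetyltransferase p300. In MLL-ENL the chromatin-binding part of KMT2A (MLL) is joined to ENL, the product of Mllt1, which belongs to transcription elongation complexes. MLL fusions are known for keeping the Hoxa genes and Meis1 on in leukaemia. Immediate early genes such as Fos and Jun are switched on within minutes of a signal, with no new protein needed, and encode transcription factors and feedback proteins.

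The promoters of 6 genes whose regions carry the contrast are shown from RefSeq (build GRCm38.p6), 5′ to 3′ on the strand of the gene. Those of Fos, Nfkbia and Arhgap35 overlapped regions specific to BN1 at equal list length. The histone promoters H2bc8 and H2bc12 and the promoter of Mllt1, which encodes ENL, overlapped regions specific to ME, that of Mllt1 with lists as deposited. Capitals mark matches on either strand. The sequence searched for was TATAAA for the box bound by the TATA-binding protein and CCAAT for the box bound by the factor NF-Y. It was ATTTGCAT for the octamer of POU factors and GGGCGG for the box of Sp factors, called GC box. It was TGANTCA for the motif of AP-1 and CCGGAAG for the motif of ETS factors. The consensus motifs of NF-kB and NRF1 were searched for as well. GC boxes can overlap each other, and a match is a description of the letters only.
Fos promoter, chr12:85473640-85473939, plus strand: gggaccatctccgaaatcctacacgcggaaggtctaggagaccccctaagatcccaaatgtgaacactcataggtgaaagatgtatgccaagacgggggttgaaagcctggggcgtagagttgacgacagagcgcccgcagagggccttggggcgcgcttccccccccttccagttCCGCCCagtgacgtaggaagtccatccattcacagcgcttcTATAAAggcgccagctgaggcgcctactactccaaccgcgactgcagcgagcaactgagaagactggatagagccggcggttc
Nfkbia promoter, chr12:55492598-55492897, minus strand: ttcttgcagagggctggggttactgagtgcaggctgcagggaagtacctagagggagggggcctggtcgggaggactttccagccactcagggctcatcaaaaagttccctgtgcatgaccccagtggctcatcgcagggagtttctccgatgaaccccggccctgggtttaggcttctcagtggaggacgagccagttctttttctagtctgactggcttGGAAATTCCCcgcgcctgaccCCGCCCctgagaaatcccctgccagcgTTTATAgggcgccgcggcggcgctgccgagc
Arhgap35 promoter, chr7:16614944-16615243, minus strand: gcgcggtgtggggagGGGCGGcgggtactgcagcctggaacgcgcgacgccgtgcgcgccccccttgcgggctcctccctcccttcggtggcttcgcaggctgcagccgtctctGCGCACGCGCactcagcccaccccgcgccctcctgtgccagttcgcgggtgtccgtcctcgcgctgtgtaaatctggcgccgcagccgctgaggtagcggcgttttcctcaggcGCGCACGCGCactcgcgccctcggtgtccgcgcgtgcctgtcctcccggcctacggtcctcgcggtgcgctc
H2bc8 promoter, chr13:23571150-23571449, plus strand: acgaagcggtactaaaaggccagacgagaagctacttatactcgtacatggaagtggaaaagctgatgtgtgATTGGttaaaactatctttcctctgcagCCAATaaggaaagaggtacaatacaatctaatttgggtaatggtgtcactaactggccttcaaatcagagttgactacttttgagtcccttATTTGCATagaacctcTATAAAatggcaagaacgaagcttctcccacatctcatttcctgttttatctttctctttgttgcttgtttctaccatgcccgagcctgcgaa
H2bc12 promoter, chr13:22035571-22035870, plus strand: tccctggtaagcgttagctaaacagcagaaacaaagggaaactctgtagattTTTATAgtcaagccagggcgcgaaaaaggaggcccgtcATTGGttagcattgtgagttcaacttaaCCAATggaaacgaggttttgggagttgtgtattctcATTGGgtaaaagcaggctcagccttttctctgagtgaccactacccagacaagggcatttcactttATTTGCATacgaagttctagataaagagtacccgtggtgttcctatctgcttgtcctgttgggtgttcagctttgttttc
Mllt1 promoter, chr17:56935339-56935638, minus strand: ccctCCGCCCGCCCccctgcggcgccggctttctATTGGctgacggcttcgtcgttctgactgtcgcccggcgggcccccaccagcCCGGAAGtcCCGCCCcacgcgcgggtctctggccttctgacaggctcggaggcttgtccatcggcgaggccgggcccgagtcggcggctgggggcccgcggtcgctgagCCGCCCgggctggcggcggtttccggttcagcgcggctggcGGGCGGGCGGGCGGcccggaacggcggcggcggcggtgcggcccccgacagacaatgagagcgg

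The octamer, a binding motif of POU factors long known from H2B promoters, was present in 1.75% of all 31396 promoter windows in the table. It was present in 11 of the 277 windows overlapped by ME-specific regions at equal length (3.97%) and in 1 of 80 overlapped by BN1-specific regions (1.25%). With lists as deposited it was in 38 of 2429 windows overlapped by ME-specific regions (1.56%), not above the share of all windows. It was in 1.21% of windows overlapped by regions called in all 6 libraries. The NF-kB motif was in 0.417% of all windows, in 2 of the 80 BN1-specific windows and in none of the 277 ME-specific ones. The NRF1 motif, which has 2 matches in the Arhgap35 window, was in 4.68% of all windows, 16.2% of the ME-specific and 8.75% of the BN1-specific windows. ETS motifs were in 9.0% of all windows, 15.9% of the ME-specific and 6.25% of the BN1-specific windows, and GC boxes in 36.0%, 80.1% and 67.5%. Windows overlapped by regions called in all 6 libraries at equal length held NRF1 motifs in 16.1%, ETS motifs in 20.6% and GC boxes in 80.4%, so these shares were not particular to the ME-specific set. AP-1 motifs were in 7.84% of all windows, 5.78% of the ME-specific, 2.5% of the BN1-specific and 3.73% of the all-6 windows. For CCAAT these shares were 37.3%, 43.7%, 48.75% and 51.9%, and for TATAAA 13.6%, 5.42%, 7.5% and 5.40%.

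The lists differed in length before any region was compared. BN1 libraries 1, 2 and 3 held 4258, 3011 and 3432 peaks, and ME libraries 9663, 9615 and 8546, with no overlap between the groups. The means were 3567 ± 634 and 9275 ± 632 (SD, n = 3 each), and the 2-sided exact permutation p was 0.1, the smallest that 3 against 3 can give. Peaks covered 1.45 ± 0.288 Mb in BN1 and 3.89 ± 0.229 Mb in ME. The files hold no read numbers, so depth is unknown, and a region without a peak was not called rather than shown to be closed. With lists cut to equal length the 3885 against 22 regions became 318 against 233. Signal, the authors' strength of a peak, was taken to be significance summed along the peak, which can rise with its width. It was not on a common scale either. The last BN1 peak kept at equal length had a signal of 297, 200.1 and 228 in libraries 1 to 3 (the first left out 297.1 and 227.6, with none left out in library 2). In ME the last kept and first left out were 767 in library 1, 758 in library 2 and 687 in library 3. Ranks within a library are therefore used below, with rank 1 the strongest peak, and ranks in lists of different length are not levels that can be compared.

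BN1 library 1 stood apart from its group. Its 3011 strongest peaks overlapped those of BN1 libraries 2 and 3 by 79.9% and 82.1%, and those of the 3 ME libraries by 80.1 to 80.6%. BN1 libraries 2 and 3 overlapped each other by 89.0%, and ME libraries each other by 94.3 to 95.0%. Of the 1065 regions called in all ME libraries and 1 BN1 library, that library was BN1 library 1 in 862. At Mpo, the myeloperoxidase gene of promyelocyte granules, the promoter peak ranked 536 in BN1 library 1 and 2226, 1967 and 1888 in ME, and was not called in BN1 libraries 2 and 3. Regions at Ctsg and 1 at Elane, which encode granule proteases, and 1 nearest to Kit, the stem cell factor receptor gene 156 kb away, followed the same pattern of calls. Other granule genes did not all do so. A second Elane region was called in BN1 library 1 and 1 ME library. Regions near Prtn3 were called in BN1 libraries 1 and 3 and all ME libraries. Of 13 granule genes listed, Prss57, Srgn and Calr had a region called in all 6 libraries. BN1 library 1 also held a peak of rank 126 at chr11:87805913-87807499, 12.1 kb from the Mpo start, that no other library of the series called. Without BN1 library 1, the equal-length counts were 543 regions specific to ME and 441 to BN1, and the counts from lists as deposited were 4748 and 33.

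**Figure D1:**
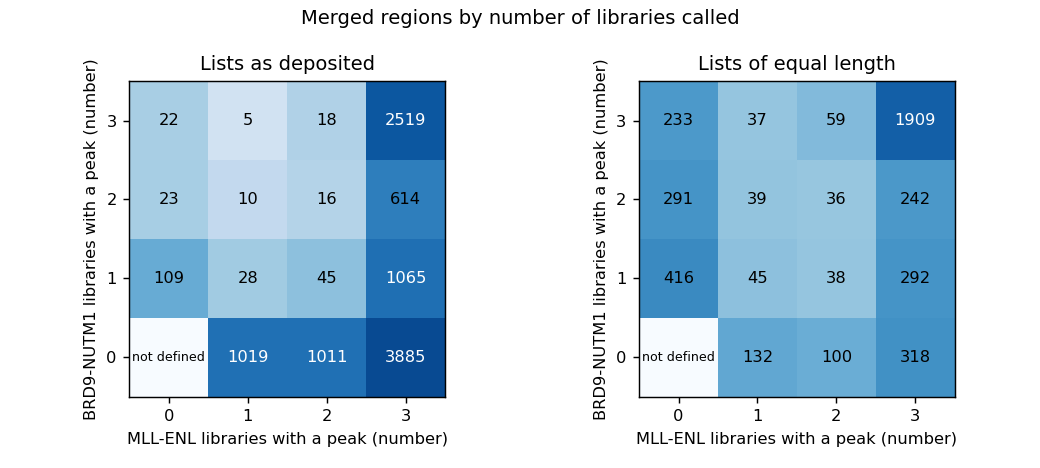
Number of merged regions by the number of BRD9-NUTM1 libraries (y axis, 0 to 3) and MLL-ENL libraries (x axis, 0 to 3) with a peak, for lists as deposited (left) and for the 3011 strongest peaks of each library (right), with darker blue for more regions on a log scale. With lists as deposited 3885 regions sit in the ME corner and 22 in the BN1 corner, and at equal length 318 and 233.

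Of all the BN1-specific regions at equal length, the one with the highest rank lay over the start of Gstp3, a glutathione S-transferase gene (chr19:4058797-4061146). It ranked 40, 34 and 52 in BN1 and 3186, 4301 and 4178 in ME. In Control it ranked 13258 to 16027 and in MA9 214 to 282. Zfp36 encodes tristetraprolin, which promotes decay of AU-rich mRNAs. Its region at chr7:28382727-28383426, 3.5 kb from the start, ranked 629, 422 and 670 in BN1 and 3975, 4584 and 4288 in ME. That region lay under peaks of rank 9 or 10 in Control and 19 to 25 in MA9, where one peak may span several regions. Other leading regions were near Cyp2w1 (a cytochrome P450), Pura (a DNA- and RNA-binding protein), Gins2 (a subunit of the GINS replication complex), Btg2 (an antiproliferative gene), Armc7 and Arhgap35. Cdh5, the gene of VE-cadherin, had 3 BN1-specific regions in chr8:104076687-104098622, between 2.99 and 24.1 kb from the nearer end of the gene. Values for these regions describe the choice made by the rule and carry no test.

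The Cdh5 regions ranked lower or were not called outside BN1. At chr8:104076687-104077524 the ranks were 519, 491 and 941 in BN1, 5082, 4535 and 3785 in ME, 8809 to 10332 in MA9, and 18460 and 19838 in the 2 Control libraries that called it. Cdh5 is best known from endothelial cells. Of 16 endothelial and stromal genes listed, 14 had no region in any of the 6 libraries, among them Pecam1, Kdr, Tek and Tie1, and Cxcl12 had a region in ME only, in 2 libraries. No BN1 library therefore called a peak nearest to any endothelial or stromal marker on the list other than Cdh5.

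Only 22 regions were specific to BN1 with lists as deposited. Arhgap35, the gene of p190A RhoGAP, had its promoter region (chr7:16615011-16615587) at ranks 714, 575 and 724 in BN1 and no peak in ME. The same region ranked 2539 to 2836 in Control and 1598 to 1746 in MA9, so it was missing from the ME lists alone. Kdm6b, an H3K27 demethylase gene, and Gramd1b, a cholesterol transporter gene, had 2 of the 22 regions each. Jag1, a Notch ligand gene, had a region 1.91 kb from its start that ranked 2544, 1032 and 2191 in BN1, 18492 to 22255 in MA9 and was not called in Control. Regions near Map3k4, Tmem30c, Adgb and Zfp64 were called in none of the 6 Control and MA9 libraries. In the Map3k4 region (chr17:12249839-12250348), 68.3 kb from the start, BN1 ranks were 2186, 461 and 704, with library 1 the weakest. The other named members of the 22 were Pura, Pcbp3, Gja1, Rab20 and Rhof.

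Histone genes were frequent among the regions specific to ME. Core and linker histone genes, a set matched by symbol after the values were seen, were the nearest gene of an ME-specific region in 25 of 68 cases with lists as deposited (36.8%, against 16.3% of all 20665 protein-coding genes). At equal length the count was 13 of 68 (19.1%, against 1.52% of all genes), and none had a BN1-specific region in either form. Among histone genes with a region, these were 25 of 34 as deposited and 13 of 26 at equal length. Over all genes with a region the shares were 45.9% and 8.82%. In a stretch of 37 kb on chromosome 13 (chr13:23544231-23581904), 6 regions were specific to ME at equal length, nearest to H1f3, H2ac7, H2ac8, H3c7, H4c4 and H4c6. The H2ac8 region (chr13:23570713-23571883), which also covers the H2bc8 promoter shown above, ranked 499, 462 and 797 in ME. It was not called in BN1, and lay under peaks of rank 6 to 13 in Control and 393 to 467 in MA9. The region over H2ac12 and H2bc12 (chr13:22035161-22036284) ranked 316, 307 and 367 in ME and was likewise not called in BN1. In Control it ranked 185 to 246 and in MA9 277 to 348. These regions were thus strong in every library of the series outside BN1.

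The single strongest ME-specific region lay 86.8 kb from the start of Dyrk1a, a protein kinase gene (chr16:94698208-94699318). It ranked 278, 292 and 217 in ME and 367, 309 and 298 in MA9, and was called in no BN1 and no Control library. Other regions high in ME and MA9 lay near Smyd3 (a methyltransferase), Pecr (a peroxisomal enzyme), Wtap (a subunit of the m6A methyltransferase), Gse1, Phactr4, Rdm1, Tmco3, H2ac13 and Cpeb2. H2ac13, Rdm1 and Tmco3 were strong in Control as well, at ranks 36 to 61, 725 to 856 and 1422 to 1894. Pecr, Wtap, Phactr4 and Cpeb2 ranked between 2345 and 10730 in Control, and Smyd3 was called in 2 Control libraries. The stronger of the ME regions at Gse1 (chr8:120535719-120536844) ranked 887, 860 and 795 in ME, 146 to 1496 in MA9, and was not called in Control. Stmn1 (stathmin), Sqstm1 (p62), Pxn (paxillin), Cpeb2 and Pkmyt1 (a kinase that inhibits CDK1) were specific to ME at equal length although BN1 library 1 called them at ranks 3038 to 3598. Ranked by −log10 p in place of signal, the Dyrk1a, H2ac12 and H2ac8 regions were within the 3011 strongest peaks of 1 of 3 ME libraries and those near Smyd3 and Pecr of none, and no BN1 library had a peak in any of them. The cause was not tested.

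Regions on the 2 sides differed in where they lay. At equal length, 155 of 233 BN1-specific regions were more than 1 kb from any gene start (66.5%), against 55 of 318 ME-specific regions (17.3%) and 31.1% of all 4187. ME-specific regions lay over a start in 76.7% of cases and BN1-specific ones in 24.5%. Their median widths were 621 and 371 bp at equal length, and in the other order, 300.0 and 413 bp, as deposited. With lists as deposited, 77.3% of the 22 BN1-specific and 37.1% of the ME-specific regions were more than 1 kb away. The libraries themselves turned with list length. The share of peaks within 1 kb of a start was 68.4 ± 0.471% in BN1 and 63.5 ± 1.59% in ME as deposited, and 70.2 ± 2.52% and 80.4 ± 0.166% at equal length (n = 3 each, exact permutation p = 0.1 in both, the smallest possible). Without BN1 library 1, 69.4% of BN1-specific and 17.7% of ME-specific regions at equal length lay more than 1 kb from a start. The cut kept 70.7%, 100% and 87.7% of the peaks of BN1 libraries 1 to 3, and 31.2%, 31.3% and 35.2% in ME. With it the median peak width, as a mean over libraries, went from 330 to 587 bp in ME and from 347 to 370 bp in BN1. How far the unequal depth of the cut, or a signal summed along the peak, shaped the contrast in place and width at equal length was not tested.

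**Figure D2:**
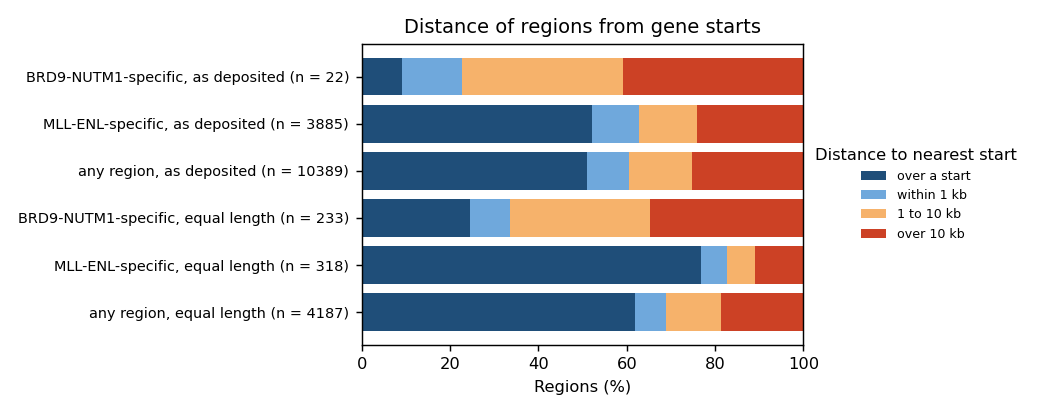
Share of regions (x axis, percent) by distance to the nearest gene start, in 6 sets of regions (bars, with their number), with dark blue for regions over a start and red for those more than 10 kb away. BN1-specific regions at equal length are 24.5% over a start and ME-specific regions 76.7%.

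The Control and MA9 libraries were not used to choose the regions, so they show how each set behaves elsewhere. Of the 318 ME-specific regions at equal length, 73.6%, 75.5% and 73.3% were within the 3011 strongest peaks of MA9 libraries 1, 2 and 3, against 33.9%, 28.3% and 34.8% of the 233 BN1-specific regions. Over all 4187 regions the shares were 66.3 to 66.6% in MA9 and 54.4 to 56.1% in Control. In Control those of the specific sets were 32.4%, 29.6% and 30.5% for ME-specific regions and 36.5% in each library for BN1-specific ones. The ME-specific set thus stood a little above all regions in MA9, and both sets stood below all regions in Control. The ME share minus the BN1 share was 41.8 ± 4.69 percentage points in MA9 and −5.66 ± 1.44 in Control (n = 3 libraries each). All 3 MA9 libraries lay above all 3 Control libraries, with an exact permutation p of 0.1 (2-sided, the smallest possible). Without BN1 library 1 the mean shares in MA9 were 78.8% and 22.7%, and in Control 33.6% and 35.8%. MA9, like ME, carries a KMT2A fusion.

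**Figure D3:**
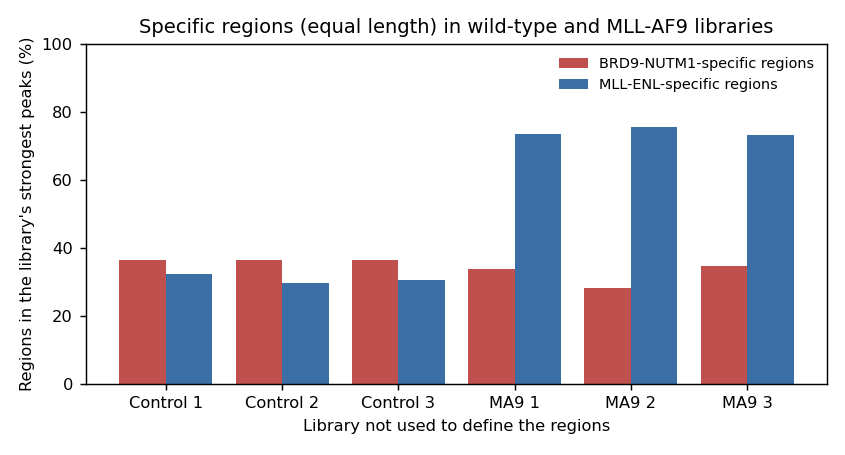
Share (y axis, percent) of the 233 BN1-specific (red) and 318 ME-specific (blue) regions of equal-length lists found among the 3011 strongest peaks of each Control and MA9 library (x axis), with 1 bar per library and set. ME-specific regions reach 73.3 to 75.5% in MA9 and 29.6 to 32.4% in Control, and BN1-specific regions stay between 28.3 and 36.5%.

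In the full lists of Control and MA9, ME-specific regions were called about as often as regions at large. Of the 3885, 3429 (88.3%) were called in all 3 Control libraries and 3869 (99.6%) in all 3 MA9 libraries, against 88.5% and 98.6% of all 10389 regions. Of the 3885, 327 were called in all MA9 and no Control library, as were 767 of all regions. Of the 22 BN1-specific regions, 11 were called in all Control and 18 in all MA9 libraries, and 4 in neither group. Of the 233 BN1-specific regions at equal length, 203 had a weaker peak in all 3 full ME lists. Of the 318 ME-specific regions, 162 had a weaker peak in the full list of BN1 library 1, 34 in library 3 and 0 in library 2, whose full list is the equal-length list.

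The Hoxa cluster held peaks in ME and none in BN1, and Meis1 had a peak in neither. Across the Hoxa cluster (chr6:52155367-52260880), BN1 libraries had no peak and ME libraries 7, 5 and 6, against 18 to 20 in MA9 and 1 or 2 in Control. Hoxa3, Hoxa7 and Hoxa9 had ME-specific regions, 3 of 11 Hoxa genes against 16.3% of all protein-coding genes. Of the 5 Hoxa genes with a region these were 60.0%, against 45.9% over all genes with a region. The Hoxa9 region (chr6:52226049-52226547) ranked 4815, 4260 and 4703 in ME and was called in no Control library. The Hoxa3 region was weak, at ranks 8214, 7226 and 8543 in ME, and at equal length the window held 0, 1 and 0 in ME. Meis1, a Hox cofactor gene, had no peak within 5 kb in either leukaemia, with 7 to 9 in MA9 and 2 in Control. Of 20 Hox cofactors and MLL fusion targets, 6 had an ME-specific region as deposited (Pbx3, Mef2c, Myc, Cdk6, Eya1 and Mn1), and only Pbx3, a Hox partner, did so at equal length. Of the 20 regions of that list 6 were ME-specific (30.0%, against 37.4% of all regions), and Zeb2 was called in all 6 libraries.

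The Mllt1 promoter region (chr17:56935391-56936036) ranked 3592, 2290 and 3294 in ME and was not called in BN1. Brd9 had 1, 1 and 2 peaks within 5 kb in ME and none in BN1, and its promoter region ranked 4124, 4257 and 7248. Kmt2a had 1 peak in every library of both groups, at ranks 1245, 2185 and 1922 in BN1 and 1595, 1575 and 1453 in ME. Nutm1 had none in either. Bmi1, a Polycomb gene named in work on NUTM1 leukaemias, had no peak within 5 kb in BN1 and 1 in each ME library, which lay at the neighbouring Commd3 start. Among the 23 genes of fusion partners and their complexes, 9 had an ME-specific region and none a BN1-specific one as deposited (background 16.3% and 0.0968%). Since 21 of the 23 had a region, that was 42.9% of genes with a region, against 45.9% over all genes, and 28.2% of the list's regions, against 37.4% of all. The ME-specific share of this list was thus not above the background. At equal length 4 were ME-specific, Mllt1 (a region 22.4 kb from its start, not the promoter), Brd3, Smarcc1 and Ss18, of which the last 2 encode SWI/SNF subunits, and 1 was BN1-specific, Dot1l, the H3K79 methyltransferase gene (background 1.52% and 1.05%). Of the 13 genes with a region at equal length these were 30.8% and 7.69%, against 8.82% and 6.10% over all genes with a region.

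Immediate early genes showed the reverse at equal length. Of 19 genes listed, 7 were nearest to a BN1-specific region, Fos, Jun, Junb, Dusp1, Zfp36, Atf3 and Btg2, against 1.05% of all protein-coding genes. One, Egr1, was nearest to an ME-specific region (1.52% of all genes). Since 16 of the 19 had a region at equal length, these were 43.8% and 6.25% of genes with a region, against 6.10% and 8.82% over all genes. With the 2000 strongest peaks per library the counts of 7 and 1 became 4 and 3, and without BN1 library 1 they were 7 and 3. With lists as deposited, none of the 19 had a BN1-specific region and 7 had an ME-specific one (background 0.0968% and 16.3%). That was 36.8% of the genes with a region, against 45.9% over all genes, and 18.6% of the list's regions, against 37.4% of all. These genes carry many regions each, 3.11 per gene with a region as deposited against 1.41 over all genes. A gene with more regions has more chances to be nearest to a specific one. The share by region at equal length was not counted. The Fos promoter region (chr12:85473471-85474025), which holds the sequence shown above, ranked 1429, 1195 and 1569 in BN1 and 4540, 3568 and 4500 in ME. In Control it ranked 390 to 495 and in MA9 4541 to 5816. Dusp1, a MAP kinase phosphatase gene, had a region at ranks 2633, 2020 and 2498 in BN1 and 4161, 4046 and 3807 in ME. The Jun region was 163 kb from the gene, and its link to Jun rests on distance alone. Nfkbia, which encodes the NF-kB inhibitor IκBα and was not on the list, ranked 1702, 1828 and 1259 at its promoter in BN1 and 3583, 3330 and 3486 in ME.

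Regions called in all 6 libraries allowed a test across libraries. Each of the 2519 was ranked by signal within a library among the same 2519, and the ranks were compared as normal scores with limma, with Benjamini-Hochberg adjustment and a threshold of 0.05. Of these, 283 were higher in ME (11.2%) and 402 higher in BN1 (16.0%). The need for a call in all 6 libraries weighed on the sides unequally. Regions called in all ME libraries but in 0, 1 or 2 BN1 libraries, 3885, 1065 and 614, were left out. In the other direction 22, 5 and 18 were left out. The counts of the 2 directions are therefore not to be set against each other. With regions called in at least 5 of 6 libraries, 404 were higher in ME (12.8%) and 424 in BN1 (13.5%). The test reads the same ranks as the equal-length rule, and 118 of the 402 overlapped a BN1-specific region of that rule. Overlap of the 283 with ME-specific regions could not occur, because the full list of BN1 library 2 is its equal-length list. Regions that overlapped are given below by value, without a p. Percentiles below run from 0 for the weakest to 100 for the strongest of the 2519 and show relative strength within a library. Without BN1 library 1 the counts were 606 and 774. Without ME library 1, 2 or 3 they were 87 and 152, 86 and 148, and 102 and 190. Of the shared regions higher in BN1, 56.2% lay more than 1 kb from a start, against 34 of the 283 higher in ME and 26.7% of all. Their median widths were 472.5, 786 and 593 bp.

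**Figure D4:**
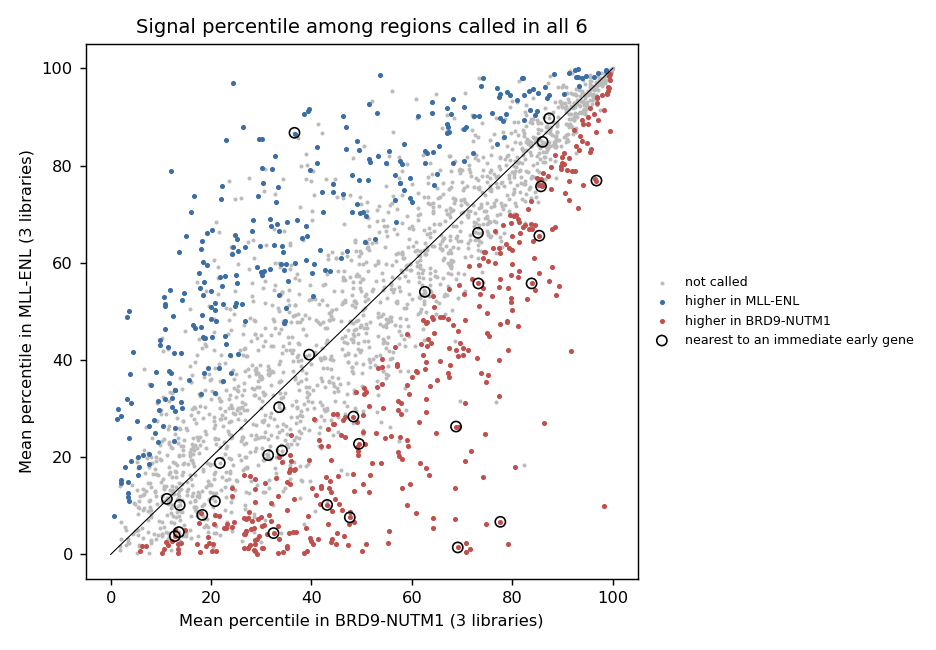
Mean signal percentile in 3 MLL-ENL libraries (y axis) against that in 3 BRD9-NUTM1 libraries (x axis) for the 2519 regions called in all 6, with 283 called higher in ME (blue), 402 called higher in BN1 (red), the rest in grey, and regions nearest to an immediate early gene circled. The circled regions lie below the diagonal except for Fosl2, Jund and 1 each of Ier2 and Egr1, of which Fosl2 is farthest above it.

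The promoter of H1f2, a linker histone gene, differed most toward ME (chr13:23738676-23740138). Its percentile was 32.9, 17.4 and 22.6 in BN1 and 97.6, 97.4 and 96.2 in ME, a difference in means of 72.7 points (limma adjusted p = 0.00102). Ppat, a purine synthesis gene, followed with a difference of 66.9 points (limma adjusted p = 0.0226), which was lost when any one ME library was left out. At Ep300, which encodes the p300 acetyltransferase that NUTM1 recruits, the percentile was 52.7, 13.1 and 24.9 in BN1 and 87.2, 84.3 and 84.8 in ME. The groups did not overlap, and the difference was 55.2 points (limma adjusted p = 0.0137, and 0.0555 to 0.0626 without one ME library). Smarca4, a SWI/SNF ATPase gene, was also higher in ME, by 30.0 points (limma adjusted p = 0.0455). Of the 11 shared regions of fusion partners and their complexes, Ep300 and Smarca4 were the 2 higher in ME, and 2 were higher in BN1 (11.2% and 16.0% of all). Those higher in BN1 were the Men1 promoter, by −33.4 points (limma adjusted p = 0.0131), and a Dot1l region chosen by the equal-length rule, by −25.9 points. The other 7 leading regions lay near Zfat, Tuba1b (an alpha-tubulin), Gbe1 (the glycogen branching enzyme), Sumo3, Pex2, Rnf138 and Srsf5 (a splicing factor), with differences from 52.2 to 62.2 points. Of the leading regions toward ME, only Ep300, Pex2 and Rnf138 had 1 peak in every library, as did all those toward BN1. A region with several peaks took its highest signal, so a split into peaks can lower its rank without less open chromatin. With signal summed over the peaks of a region, 16 leading regions of both directions kept their call, 4 were weaker and none reversed.

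Toward BN1 the largest differences were at the Gstp3, Cyp2w1 and Zfp36 regions already described, by −88.5, −76.9 and −70.9 points of percentile (ME minus BN1). Among those that followed were Gins2, Armc7, Cdh5, Btg2 and F10, the coagulation factor X gene, where BN1 libraries stood at 71.7, 87.6 and 82.5 and ME libraries at 20.5, 21.8 and 11.4. F10 differed by −62.7 points (limma adjusted p = 0.00374). All 4 shared Cdh5 regions had every BN1 library above every ME library. Of the pair outside the equal-length rule, chr8:104085193-104086365 differed by −51.3 points (limma adjusted p = 0.0129), and the other did not pass (limma adjusted p = 0.0604). Cebpb, the gene of a myeloid transcription factor, had 4 of its 5 shared regions higher in BN1 and none higher in ME, of which 2 overlapped regions chosen by the equal-length rule and 2 did not. At the Cebpb region chr2:167775165-167775836, 86.3 kb from the start and outside the equal-length rule, percentiles were 65.0, 79.3 and 79.7 in BN1 and 44.4, 34.6 and 27.1 in ME (limma adjusted p = 0.0112). The same gene was nearest to 5 regions specific to ME with lists as deposited. Cebpb held all 4 of the calls in the list of 20 myeloid transcription factors, which had 12 shared regions, none higher in ME.

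Of the 29 shared regions nearest to 14 immediate early genes, 13 were higher in BN1 (44.8%, against 16.0% of all) and none was higher in ME (11.2% of all). Their median difference was −10.1 points, against −0.556 over all 2519 regions. Of the 59 regions of this list as deposited, 11 were ME-specific and so could not be among the 29. Of the 29 regions, 9 overlapped a BN1-specific region chosen at equal length, and of the 20 that did not, 7 were higher in BN1. Over all shared regions outside that rule, 284 of 2316 were (12.3%). The 13 lay nearest to Zfp36, Btg2, Fos, Junb, Jun and Klf2. At the Fos promoter the percentile was 47.9, 54.6 and 40.4 in BN1 and 5.66, 11.3 and 5.97 in ME, a difference of −40.0 points. A region 18.3 kb from the Fos start (chr12:85454934-85455617), outside the rule, stood at 81.7, 84.3 and 85.5 in BN1 and 59.2, 59.4 and 48.7 in ME (limma adjusted p = 0.00583). At Junb, 0.493 kb from the start (chr8:84979241-84980323), it was 96.4, 97.4 and 96.4 in BN1 and 77.1, 77.2 and 76.4 in ME (limma adjusted p = 0.00191). The Junb promoter also differed, by −17.5 points (limma adjusted p = 0.0221). The promoters of Jun, Ier2, Atf3, Klf2 and Btg2 did not pass the test, and at Jun the percentiles were 78.8, 91.9 and 87.4 against 84.3, 89.4 and 80.9. Fosl2 stood the other way with 82.0, 9.94 and 18.0 in BN1 and 89.3, 86.3 and 84.5 in ME (limma adjusted p = 0.0924), with BN1 library 1 beside ME. Without BN1 library 1, 18 of the 29 were higher in BN1 and 2 in ME. Without ME library 1, 2 or 3, 6, 5 and 7 were higher in BN1 and none in ME.

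**Figure D5:**
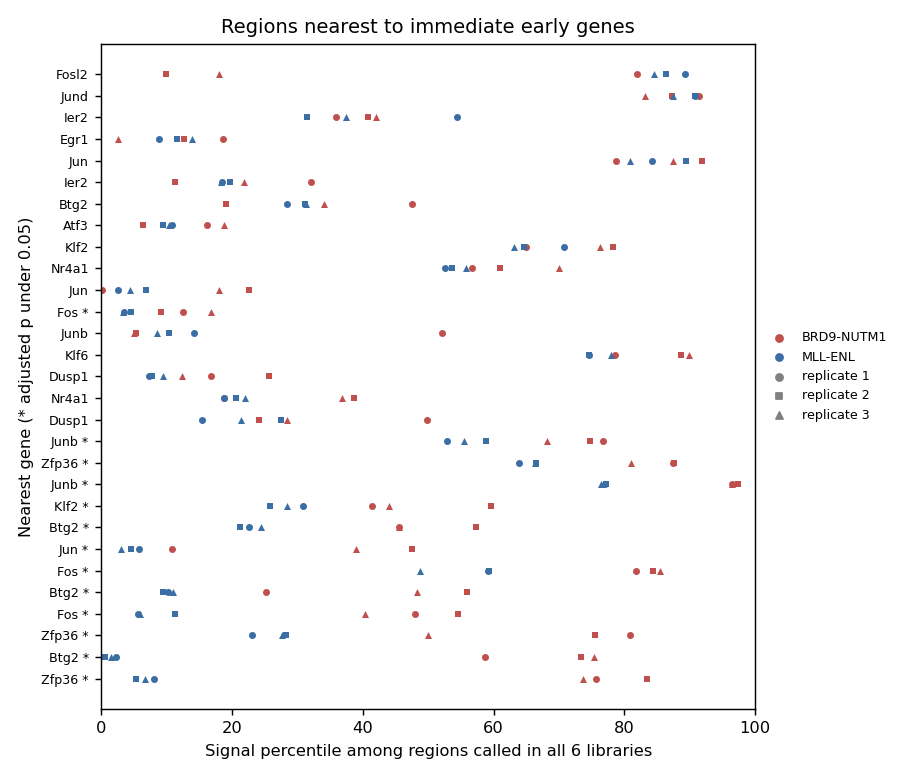
Signal percentile (x axis) in each of the 3 BRD9-NUTM1 (red) and 3 MLL-ENL (blue) libraries, with 1 row for each of the 29 shared regions nearest to an immediate early gene, marker shapes for replicates 1 to 3, and an asterisk for limma adjusted p under 0.05. The 13 marked rows have all red points to the right of all blue points, and Fosl2 has the reverse with 1 red point beside the blue ones.

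Lists of other cell types gave few regions in either leukaemia. B cell genes had a region for 2 of 19, T cell genes for 2 of 18, NK cell genes for 1 of 12 and erythroid genes for 3 of 19. Megakaryocyte genes had one for 1 of 12, and mast cell, basophil and eosinophil genes for 3 of 14. Genes silent in blood had one for 0 of 20, against 35.6% of all protein-coding genes. By region as deposited, ME-specific were 0 of 3 for B cells, 1 of 3 for T cells and 2 of 5 for NK cells. They were 2 of 3 for erythroid, 2 of 2 for megakaryocyte and 4 of 4 for the mast cell list, against 37.4% of all. At equal length the last 2 lists had no region, and the 1 erythroid gene with a region, Tfrc, was ME-specific. Stem and progenitor cell genes were nearest to an ME-specific region in 8 of 18 cases as deposited, among them Cd34, Gata2, Erg and Myb. At equal length none was (background 16.3% of all genes as deposited and 1.52% at equal length). As deposited these were 9 of their 21 regions (42.9%, against 37.4% of all). Myeloid transcription factors had an ME-specific region in 13 of 20 cases as deposited and 2 of 20 at equal length. By region this was 20 of 54 (37.0%), near the 37.4% of all regions. Granule genes had a region for 10 of 13 genes but an ME-specific one only at Ms4a3. Mmp9 was the only 1 of 20 neutrophil maturation genes with an ME-specific region. Cd68, a macrophage gene, had its promoter at percentiles 53.4, 46.5 and 50.8 in BN1 and 27.3, 23.6 and 24.8 in ME (limma adjusted p = 0.00589). Cytokine receptor genes had 3 of 9 shared regions higher in BN1, at Il6ra, Ifngr1 and Ifngr2 (16.0% of all shared regions), and none higher in ME. Ifngr2 was chosen by the equal-length rule. Leaving out any 1 ME library left 0 higher in BN1, with 1 higher in ME without ME library 1, and the replicate block also left 0. Housekeeping genes had 3 of 14 shared regions higher in ME and 4 higher in BN1 (11.2% and 16.0% of all). B2m, 1 of the 4, was chosen by the equal-length rule, and leaving out any 1 ME library left 0 higher in BN1 and 1 or 2 in ME. Without BN1 library 3 there were 3 and 0, and without BN1 library 1 there were 7 and 3. Of those 14, the Eef1a1 promoter stood at percentiles 49.2, 16.2 and 25.1 in BN1 and 80.4, 77.0 and 81.2 in ME. In mixed marrow cells, fewer cells of a type and less open chromatin per cell cannot be told apart.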

How the data were processed

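ATAC-seq peak lists of 12 libraries were used, 6 for the comparison. Genrich (no version), deepTools 3.5.1, Picard 3.2.0 and Bowtie2 2.5.4 are named, with mm10 (GRCm38) as build, in the submitters' processing notes. The authors deposited, for each peak, a signal, which was never below 200.01, a −log10 p and −log10 q, and a capped display score that was not used. Pooling and Genrich options were not given in the sources used here, the deposited signal was taken to be the summed significance along a peak that Genrich writes, and depth is unknown, since no read numbers were part of the lists. A deposited signal was used only as a rank within its library, because no common scale between libraries was stated.

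Peaks on 19 autosomes were merged and classed as the report states, with Python 3.11.15, numpy 2.4.6, pandas 2.3.3 and matplotlib 3.10.9. A region was named by the protein-coding gene with the nearest start in RefSeq's GRCm38.p6 promoter table (16457 genes), or the nearest gene end for the 4208 genes without an entry. A region with several peaks took its highest signal. Shared regions were fitted with limma 3.58.1 in R 4.3.3 on normal scores of ranks without a replicate block, and the fit was checked on simulated data. Same-numbered libraries of the groups deviated together with correlations of −0.0430, 0.0689 and 0.0152, so the numbers were not taken to pair them.

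Named were the 12 regions of highest mean percentile in each specific set, the 10 largest differences in each direction of the fit, up to 4 members of each of the 23 gene lists, and the Hoxa, Meis1, Bmi1 and fusion partner loci. One region that this rule names is not reported here. Histone genes, Nfkbia and the library 1 regions at Mpo, Ctsg, Elane, Prtn3 and Kit were chosen after their values were seen. Members and lists were chosen with earlier results of these data known. Alternatives were 2 of 3 libraries, wider or stricter overlap, stronger peaks, all sequences, 2000 peaks, −log10 p, summed or log2 signal, single-peak regions, 5 of 6 libraries, a replicate block and each library left out.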

Additional observations from a re-analysis of the deposited data

How the results depend on the processing

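Several directions turned with list length, among them the widths of the specific regions and the counts of immediate early genes given above. The BN1 minus ME difference was 16.7 bp in median peak width and 4.88 points in the share of peaks within 1 kb of a start as deposited, and −217 bp and −10.2 points at equal length. The 22 BN1-specific regions became 45 when 2 of 3 libraries sufficed and 8 with only peaks of at least double the lowest signal, and the 233 at equal length became 524 with 2 of 3. With the 2000 strongest peaks, 4 immediate early genes were BN1-specific in place of 7. Leaving out 1 library gave 3952 to 4748 ME-specific and 22 to 33 BN1-specific regions as deposited, and 340 to 543 and 242 to 441 at equal length, the highest each time without BN1 library 1. Among shared regions, leaving out 1 library gave 86 to 606 higher in ME and 148 to 774 higher in BN1. Median-centred log2 signal gave 290 and 638 calls, an ME share of 31.2% of calls against 41.3%, with a median difference over all regions of −0.10 on the log2 scale. With the replicate block 146 were higher in ME and 208 in BN1, and 8 immediate early regions in BN1; since the numbers do not pair the libraries, these are not read as weaker effects. Over all alternatives 5 to 18 immediate early regions were higher in BN1, and none in ME except 2 without BN1 library 1 and 1 with regions of at least 5 libraries. Calls in at least 1 rather than all 3 libraries raised the shares of BN1-specific and ME-specific regions found in Control to 54.5% and 91.2% as deposited and 95.3% and 97.2% at equal length, and in MA9 to 99.7% for ME-specific regions as deposited and 99.1% for BN1-specific regions at equal length. Of the 20 leading shared regions none changed direction in any alternative that covered it, and Srsf5 and Ppat lost the threshold most often. The alternative of single-peak regions covered only 13 of the 20, and left out H1f2, Ppat and Srsf5 among others. The causes were not tested. Unknown depth limits every statement on regions that were not called.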
